A study of Homo sapiens with 6 samples.

Results

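The nuclear pore and nuclear transport genes were all protein-coding genes of the count table whose symbol starts with NUP and a digit (nucleoporins), or with KPNA, KPNB, IPO or XPO and a digit (transport receptors). The rule found 43 of 61859 genes, 23 nucleoporins and 20 transport receptors. RNA was sequenced from IOMM-Lee cells, an established line from a malignant (grade 3) meningioma. The cells were kept for 48 h in a workstation at 0.2% oxygen (hypoxia, 3 biological replicates) or for 48 h in normoxia (3 biological replicates). Both groups grew at 37 °C and 5% CO2 with 10% serum. No other genotype, agent or allele is given in the labels, and the oxygen level of the normoxia cultures is not given in the sources used here. The line stands for 1 tumour, so the libraries describe these cultures and not meningiomas in general.

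Nuclear pores are large channels through the nuclear envelope, built from many copies of nucleoporins. An outer ring and an inner ring form the scaffold, nucleoporins with phenylalanine-glycine (FG) repeats fill the channel, and other proteins face the cytoplasm or form the basket on the nuclear side. Importins and exportins bind cargo and cross the channel, and the small GTPase Ran tells them on which side to let it go.

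The hypoxia libraries held 10980973, 10619864 and 18447885 counts and the normoxia libraries 19554178, 14685317 and 16049763. On the second principal component (7.83% of the variance) hypoxia replicate 3 lay at -47.7, and hypoxia replicates 1 and 2 at 27.2 and 20.1. All 8 oxygen-response genes used as a check of the labels, among them CA9 and VEGFA, were higher in hypoxia. Of the meningioma markers, VIM, DSP, CRABP2 and MUC1 were above 3 CPM on average in both groups, while SSTR2 and PTGDS were each below 1. The leukocyte markers PTPRC, CD14 and CD3E and the keratinocyte markers KRT5 and KRT14 averaged below 0.2 CPM in each group, while CSF1R, PECAM1, KDR and GFAP averaged between 0.937 and 2.30 CPM, CDH5, VWF and SOX10 below 0.5 CPM, and the neural and glial markers RBFOX3 and OLIG2 7.59 and 3.95 CPM in hypoxia and 9.30 and 6.92 CPM in normoxia. Levels are CPM, counts scaled to a common library size with TMM factors, or CPM per kilobase (kb) of exon length where genes are set against each other. Each change is the log2 ratio of hypoxia over normoxia with its standard error (SE). Adjusted p-values come from the quasi-likelihood test of edgeR and were adjusted over the 16411 genes tested (Benjamini-Hochberg), and "rose" and "fell" mean an adjusted p under 0.05.

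Nucleoporin transcripts were mostly lower in hypoxia, and those of transport receptors were mixed. Of 21 nucleoporins tested, 17 fell, 1 rose and 3 did not pass the test. Of 18 transport receptors tested, 8 fell, 3 rose and 7 did not pass. Across all tested genes 31.0% fell and 31.2% rose, 62.2% in all. Among the 12373 protein-coding genes tested, 33.7% fell and 31.9% rose, with a median log2 change of -0.03. The median log2 change was -0.80 for the nucleoporins and -0.27 for the receptors, against 0.01 for all tested genes. A fall of at least 2-fold was found in 7 of the 21 tested nucleoporins and in 1 of the 18 tested receptors, against 17.7% of all tested genes. The difference between the families was not tested, since genes are not replicates. In a bulk library, fewer cells with a transcript and less of it per cell cannot be told apart.

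**Figure D1:**
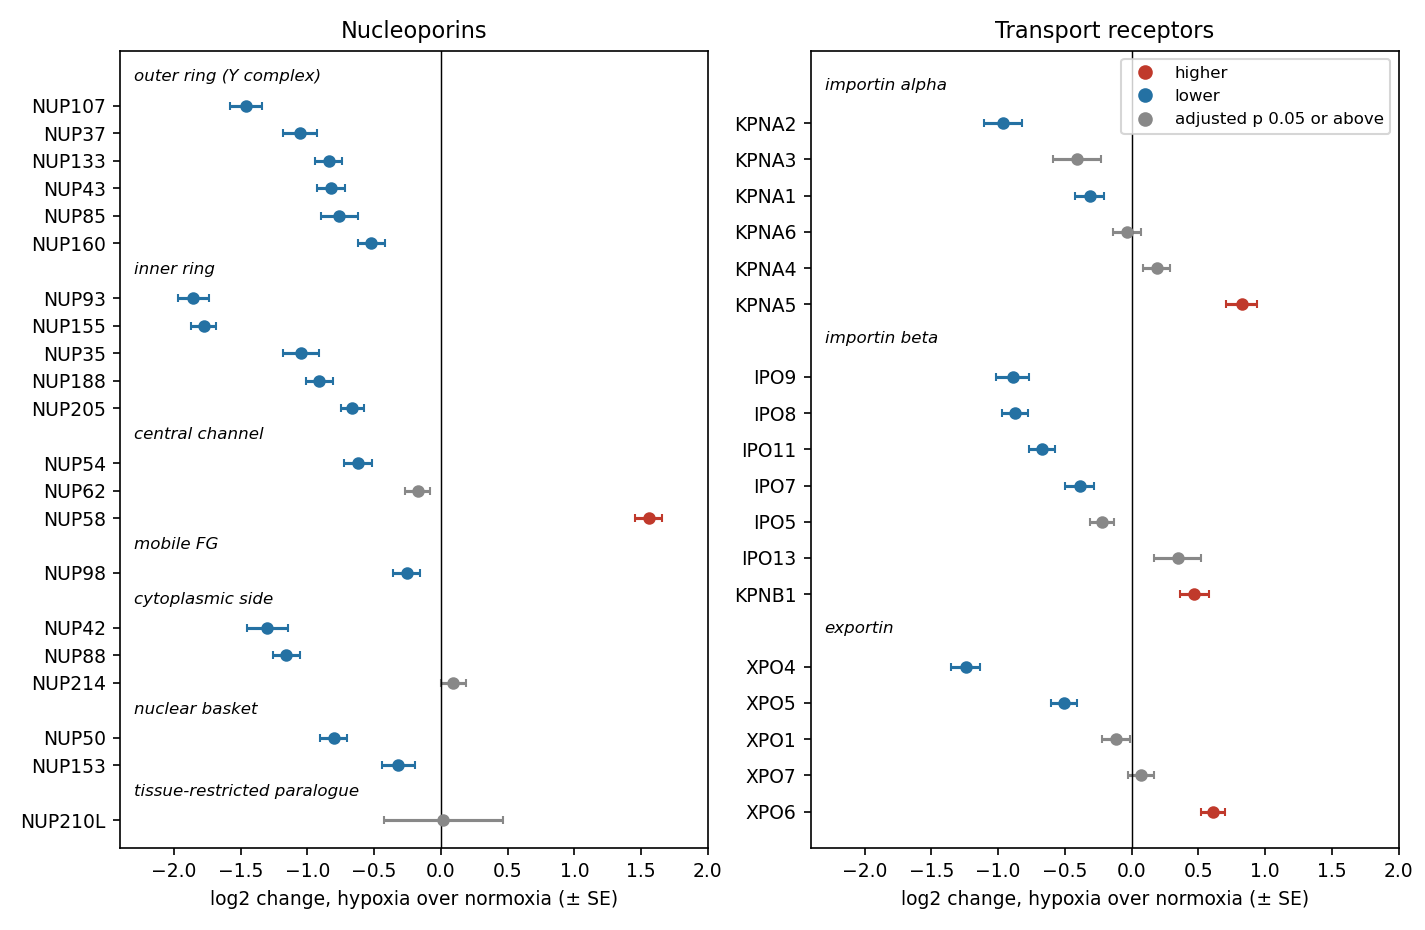
Log2 change in hypoxia over normoxia (horizontal axis, point with SE) for the 39 tested nucleoporins (left) and transport receptors (right), grouped by role, with red for higher, blue for lower and grey for an adjusted p of 0.05 or above (n = 3 libraries per group). All plotted members of the outer and inner rings lie left of 0, while NUP58 stands alone at 1.56.

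The sums over each family separate in the same way. The 23 nucleoporins together had 1175, 1285 and 1266 CPM in the hypoxia libraries, against 1607, 1682 and 1623 CPM in the normoxia libraries. The 20 transport receptors had 2934, 3107 and 3232 CPM in the hypoxia libraries, against 3235, 3469 and 3373 CPM in the normoxia libraries. In neither family did the groups overlap, although for the receptors hypoxia replicate 3 came within a few CPM of normoxia replicate 1. The ratio of receptor to nucleoporin counts, which does not depend on the scaling between libraries, was 2.50, 2.42 and 2.55 in hypoxia and 2.01, 2.06 and 2.08 in normoxia. Each receptor sum is therefore larger against the nucleoporin sum in every hypoxia library.

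The scaling sets the zero of these changes. With library totals alone, the median of all genes lay at -0.30 on the log2 scale, 3421 genes were higher and 6905 lower (33.1% of calls higher, against 50.1%, or 5117 higher and 5091 lower, with TMM factors). Under that scaling 18 nucleoporins fell and 1 rose, and 12 receptors fell and 2 rose. The nucleoporin median was then -1.11 and the receptor median -0.58, so both lay below the median of all genes under either scaling.

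The inner ring held the largest falls, and all 5 of its members fell. NUP93 (ENSG00000102900, GRCh38 chromosome 16, 56730105 to 56850286), the ring's hub that also anchors the central channel, had 15.9, 18.3 and 18.3 CPM in hypoxia against 58.7, 66.0 and 65.1 CPM in normoxia. Every hypoxia library lay far below every normoxia library, 3.61-fold lower on average (log2 change -1.85 ± 0.11 SE, edgeR adjusted p = 3.59e-07). NUP155 (ENSG00000113569, chromosome 5, 37288137 to 37371181), which ties the ring to the membrane, had 55.4, 53.6 and 53.4 CPM in hypoxia against 178, 199 and 179 CPM in normoxia. The hypoxia libraries of NUP155 lay close together and were 3.43-fold lower (log2 change -1.78 ± 0.09, edgeR adjusted p = 1.09e-07). NUP35, which also binds the membrane, fell 2.06-fold. The large scaffold paralogues NUP188 and NUP205 fell 1.88-fold and 1.58-fold, and by CPM per kb NUP205 ranked 3 among the tested nucleoporins in hypoxia and 2 in normoxia (13.4 ± 0.739 CPM per kb, against 21.2 ± 0.279 in normoxia; SD, n = 3).

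All 6 outer ring members caught by the naming rule fell as well. The outer ring is formed by the Y complex, which coats the curved membrane. NUP107, at the stem of the Y, had 24.0, 19.9 and 25.0 CPM in hypoxia against 59.4, 62.7 and 67.8 CPM in normoxia. The groups lay far apart, at a log2 change of -1.46 ± 0.12 (edgeR adjusted p = 2.52e-06). NUP133, its partner at the tip of the stem, changed by -0.84 ± 0.10, and NUP37, NUP43 and NUP85 by -1.05, -0.82 and -0.76. Of these 6, NUP160 had the smallest change, -0.52 ± 0.10. It had 42.2, 48.3 and 42.5 CPM in hypoxia against 64.3, 66.4 and 59.6 CPM in normoxia. Y complex genes outside the naming rule did not all move alike. SEH1L changed by -1.33 ± 0.11 and AHCTF1, which recruits the Y complex to chromatin, by -0.55 ± 0.14. SEC13, a Y complex member that also coats vesicles at the endoplasmic reticulum, rose by 0.44 ± 0.13 (edgeR adjusted p = 0.0148). Its hypoxia replicate 3, at 80.4 CPM, lay beside normoxia replicate 3, at 79.9 CPM, and SEC13 was not called higher with library totals alone.

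The central channel was the exception. Its 3 FG nucleoporins NUP62, NUP58 and NUP54 form one complex, yet NUP58 rose, NUP54 fell and NUP62 did not pass the test. NUP58 (ENSG00000139496, GRCh38 chromosome 13, 25301524 to 25349800) had 287, 347 and 295 CPM in hypoxia against 107, 109 and 100.3 CPM in normoxia. Every hypoxia library lay far above every normoxia library, with a 2.94-fold rise (log2 change 1.56 ± 0.10, edgeR adjusted p = 4.94e-07). NUP54 had 37.7, 37.6 and 32.4 CPM in hypoxia against 54.4, 55.8 and 54.7 CPM in normoxia, a log2 change of -0.62 ± 0.11. NUP62 had 59.9, 61.1 and 64.8 CPM in hypoxia against 66.1, 74.5 and 69.2 CPM in normoxia. The NUP62 groups lay side by side without overlap (log2 change -0.17 ± 0.10, edgeR adjusted p = 0.136). NUP62 shares 10.4% of its exon bases with ATF5 on the opposite strand. On the same strand it shares 5.58% with IL4I1 and 6.38% with another protein-coding gene. Neither the strand setting nor how reads in shared bases were counted is given in the sources used here, so the level of NUP62 is uncertain.

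The proportions of the 3 transcripts therefore differed, while those of the proteins in the complex were not measured. Per kb of exon, NUP58 stood at 2.77, 3.28 and 2.63 times NUP62 in hypoxia and at 0.932, 0.844 and 0.837 times NUP62 in normoxia. Against NUP54, NUP58 was at 2.96, 3.59 and 3.55 times its level in hypoxia and at 0.763, 0.761 and 0.715 times in normoxia. By this measure NUP58 was below both partners in every normoxia library and above both in every hypoxia library. The length used covers every annotated exon of a gene, so which gene stands higher depends on it. The change of each ratio between the groups does not, although the ratios to NUP62 share the uncertainty of its level. In CPM without scaling for length, NUP58 was above both partners in every normoxia library too. Among the 21 tested nucleoporins NUP58 ranked 11 in normoxia and 1 in hypoxia by CPM per kb (29.7 ± 3.10 CPM per kb in hypoxia, 10.1 ± 0.423 in normoxia; SD, n = 3).

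**Figure D2:**
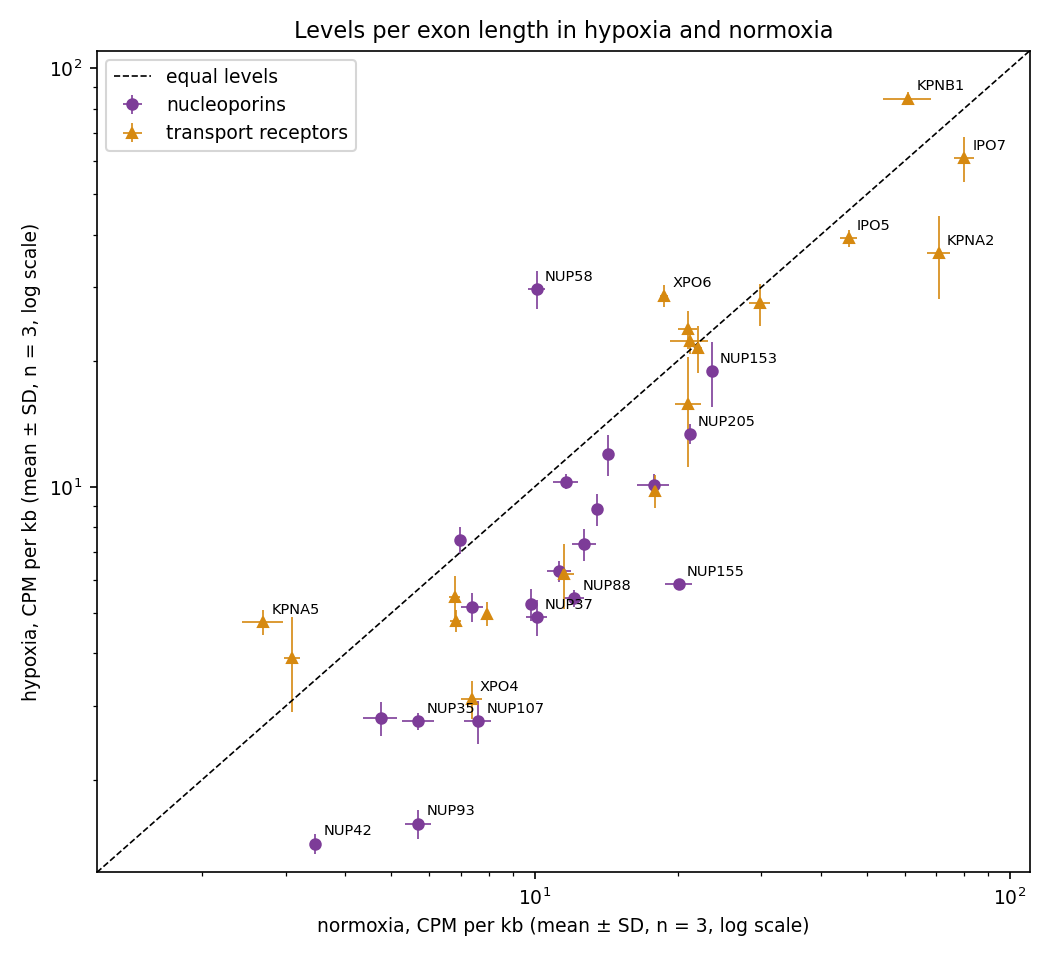
Mean level per kb of exon in hypoxia (vertical axis) against normoxia (horizontal axis), both in CPM per kb on log scales with SD bars (n = 3), for nucleoporins (circles) and transport receptors (triangles) without the barely detected NUP210L and the 4 members not tested, and with the line of equal levels dashed. Most circles lie below the line, NUP58 lies above it at 29.7 against 10.1 CPM per kb, and KPNB1 is the highest point in hypoxia.

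On the cytoplasmic side NUP88 and NUP42 fell and NUP214 did not pass the test. NUP88, which holds NUP214 at the pore, had 27.3, 30.0 and 28.8 CPM in hypoxia against 61.2, 67.2 and 63.9 CPM in normoxia (log2 change -1.16 ± 0.10, edgeR adjusted p = 4.01e-06). NUP42, a partner of the mRNA export factor GLE1, had 6.52, 5.99 and 5.88 CPM in hypoxia against 15.1, 15.1 and 14.97 CPM in normoxia (log2 change -1.30 ± 0.15). For both genes the groups lay far apart, at 2.23-fold and 2.46-fold lower on average. NUP214 had 101, 102 and 89.1 CPM in hypoxia against 92.6, 91.7 and 89.2 CPM in normoxia, and its groups overlapped (log2 change 0.09 ± 0.09, edgeR adjusted p = 0.402). NUP88 shares 9.82% of its exon bases with RPAIN and 8.84% with RABEP1 on the opposite strand. NUP42 shares 12.96% with an antisense gene. How reads in shared bases were counted is not given, so both levels are uncertain.

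Of the nuclear basket, NUP50, which helps to release importin alpha from its cargo, had 54.6, 62.4 and 64.8 CPM in hypoxia against 103, 102 and 113 CPM in normoxia (log2 change -0.80 ± 0.10). NUP153, the basket's anchor, had 93.3, 114 and 134 CPM in hypoxia against 143, 143 and 140.4 CPM in normoxia. NUP98, a mobile FG nucleoporin whose gene also encodes the Y complex member NUP96, had 113, 109 and 134 CPM in hypoxia against 138, 143 and 143 CPM in normoxia. For NUP153 and NUP98 hypoxia replicate 3 came close to the normoxia libraries, and the changes were small (-0.32 ± 0.12 and -0.25 ± 0.10, edgeR adjusted p = 0.0417 and 0.0455). Both calls were lost without each library in turn other than hypoxia replicate 3 (adjusted p from 0.0702 to 0.127 for NUP153 and from 0.0708 to 0.165 for NUP98), and with DESeq2 (0.0632 and 0.0792) and RLE scaling (0.052 and 0.0575). The NUP98 call was also lost with a replicate block (0.0557).

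The remaining nucleoporins were near the limit of detection. NUP210, a membrane nucleoporin, had 2, 1 and 2 counts in hypoxia and 5, 11 and 3 counts in normoxia. NUP62CL had 0 counts in every hypoxia library and 2, 0 and 0 counts in the normoxia libraries. Neither was tested, and a floor of 3 counts per library corresponds to between 0.133 and 0.315 CPM (counting error alone). NUP210L, a paralogue of NUP210 known from testis, averaged 0.650 ± 0.172 CPM in hypoxia and 0.629 ± 0.115 CPM in normoxia (SD, n = 3; edgeR adjusted p = 0.972).

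**Figure D3:**
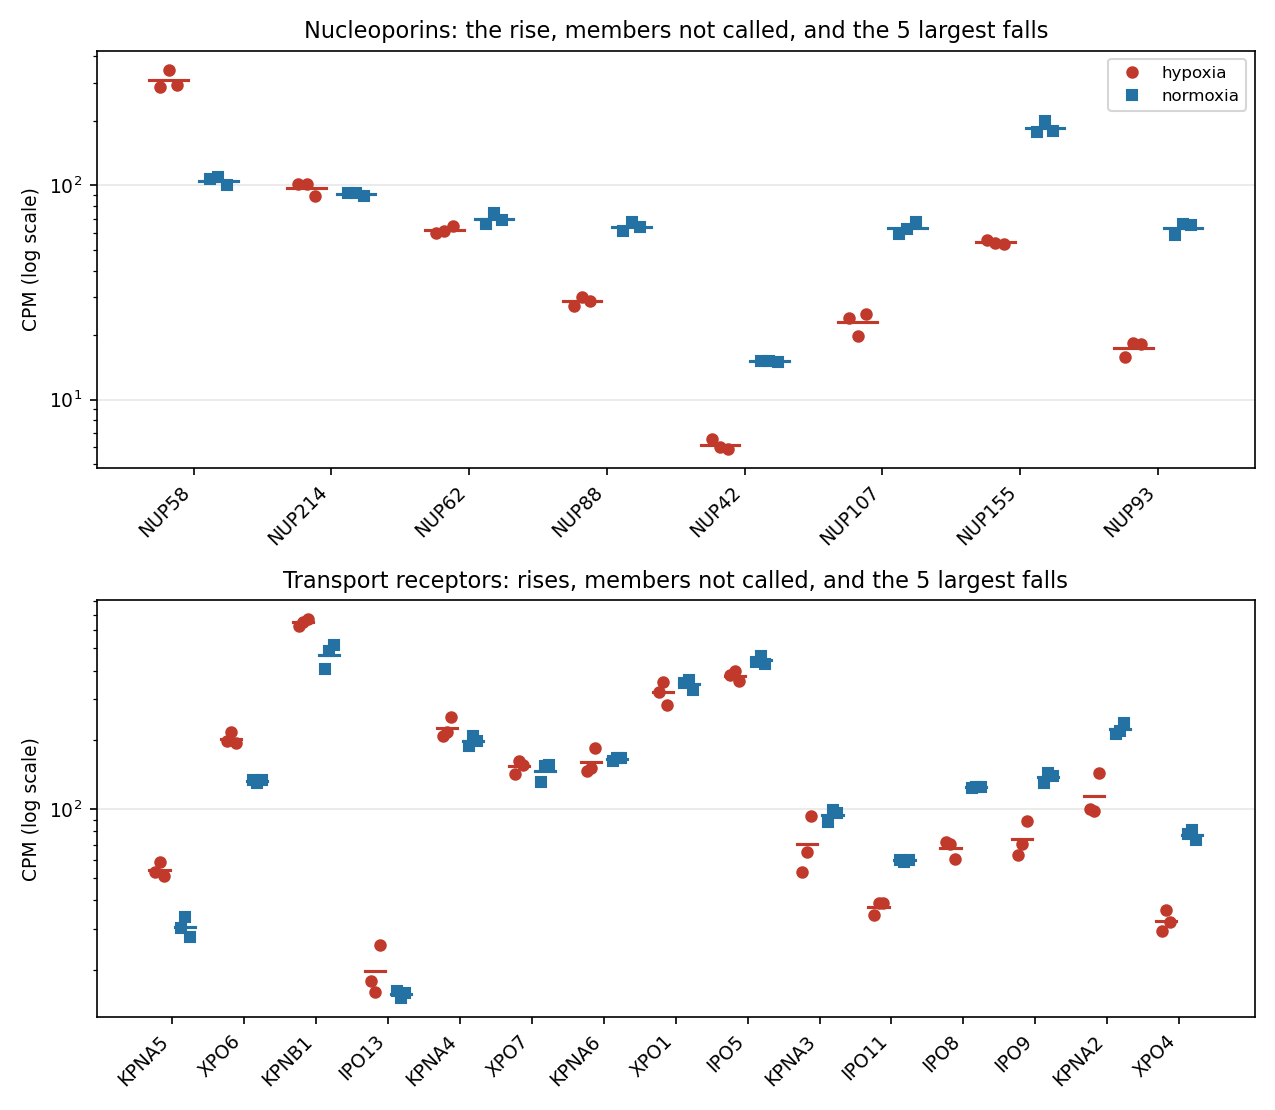
CPM in each library on a log scale for the members of each family that rose, did not pass the test or had the 5 largest falls (NUP210L left out), with hypoxia (red circles) left of normoxia (blue squares) and a line at each group mean (n = 3). The NUP58 groups are far apart upward and those of NUP155 and NUP93 downward, while hypoxia replicate 3, the right-hand circle, is among others the highest of its group for KPNA3, KPNA2 and IPO9.

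The importin alpha genes encode adaptors that recognise the classical nuclear localisation signal and hand the cargo to importin beta. Of 6 tested, 1 rose (16.7%), 2 fell (33.3%) and 3 did not pass, against 31.2% higher and 31.0% lower among all tested genes. KPNA2 (ENSG00000182481, GRCh38 chromosome 17, 68035519 to 68046842), the most abundant of them per kb in both groups, had 100.2, 97.6 and 143 CPM in hypoxia against 213, 218 and 236 CPM in normoxia. All hypoxia libraries lay below all normoxia libraries, at a log2 change of -0.97 ± 0.14 (edgeR adjusted p = 0.000185), or 1.95-fold lower. KPNA5, the least abundant of the tested adaptors in normoxia, had 53.3, 58.5 and 51.1 CPM in hypoxia against 30.5, 33.8 and 27.7 CPM in normoxia, a rise of 1.77-fold (log2 change 0.82 ± 0.11, edgeR adjusted p = 0.000112). KPNA1 had 43.7, 42.0 and 52.5 CPM in hypoxia against 58.8, 55.8 and 57.7 CPM in normoxia. Its small fall (-0.32 ± 0.11, edgeR adjusted p = 0.0288) was lost without each library in turn other than hypoxia replicate 3 (adjusted p from 0.0516 to 0.110), and KPNA1 shares 16.3% of its exon bases with an antisense gene.

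The other adaptors did not pass the test. KPNA4 had 208, 215 and 251 CPM in hypoxia against 188, 207 and 198 CPM in normoxia (log2 change 0.19 ± 0.10, edgeR adjusted p = 0.125). KPNA6 had 146, 151 and 184 CPM in hypoxia against 161, 166 and 167 CPM in normoxia, and its groups overlapped (-0.04 ± 0.10, edgeR adjusted p = 0.773), although it was called lower with library totals alone (-0.35, adjusted p = 0.019). KPNA3 had 53.0, 65.3 and 93.5 CPM in hypoxia against 87.7, 98.9 and 96.1 CPM in normoxia. Hypoxia replicate 3 of KPNA3 lay among the normoxia libraries and the other hypoxia libraries well below them, so that the change of -0.41 ± 0.18 (edgeR adjusted p = 0.073) became -0.70 without that library (6.38e-05). It was also called lower with library totals alone (-0.71, adjusted p = 0.00568), no filter on low counts (-0.52, 0.000276), upper-quartile scaling (-0.48, 0.0282) and a replicate block (-0.45, 0.0255). KPNA7, an adaptor known from oocytes and embryos, had 1, 2 and 0 counts in hypoxia and 0, 0 and 1 counts in normoxia and was not tested.

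As shares of the summed importin alpha level per kb, which are free of scaling between libraries, KPNA2 made up 33.5%, 31.4% and 35.5% in hypoxia and 48.9%, 47.8% and 50.4% in normoxia. KPNA4 made up 23.2%, 23.1% and 20.8% in hypoxia and 14.4%, 15.1% and 14.1% in normoxia. KPNA6 averaged 20.03% ± 0.745 in hypoxia and 15.3% ± 0.304 in normoxia, and KPNA5 4.52% ± 0.911 in hypoxia and 1.86% ± 0.213 in normoxia (SD, n = 3). These 4 shares did not overlap between the groups, whereas those of KPNA3 and KPNA1 did. The shares of a library add up to a fixed whole, so a lower share of KPNA2 by itself raises the others. By their own levels KPNA4 and KPNA6 did not pass the test, as given above. The two-sided exact permutation p of each of the 4 was 0.1, the smallest that 3 against 3 allows, and 0.175 after Benjamini-Hochberg adjustment over the 7 shares, so none could pass a threshold of 0.05.

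**Figure D4:**
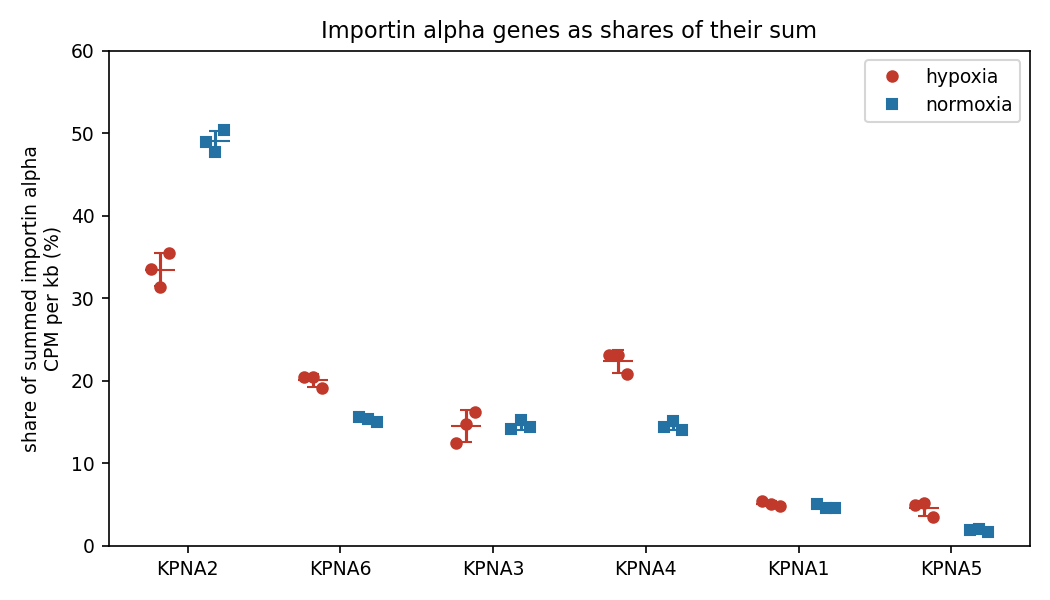
Share of each importin alpha gene in the summed importin alpha level (vertical axis, percent of CPM per kb) by library, with hypoxia (red circles) left of normoxia (blue squares), bars for mean and SD (n = 3), and the barely detected KPNA7 left out. KPNA2 lies between 31.4% and 35.5% in hypoxia and between 47.8% and 50.4% in normoxia. The shares of KPNA4, KPNA6 and KPNA5 lie higher in hypoxia, but all shares of a library are tied, since they add up to a fixed whole.

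Members of the importin beta family carry cargo through the channel. Of 7 tested, 4 fell (57.1%) and 1 rose (14.3%), against 31.0% and 31.2% of all tested genes. KPNB1 (ENSG00000108424, GRCh38 chromosome 17, 47649476 to 47685505), the partner of all importin alpha proteins, had 625, 653 and 669.9 CPM in hypoxia against 408, 485 and 515 CPM in normoxia. Every hypoxia library was above every normoxia library, at a 1.38-fold rise (log2 change 0.47 ± 0.11, edgeR adjusted p = 0.0031). KPNB1 no longer passed the test when libraries were scaled by their totals only (0.16 on the log2 scale, edgeR adjusted p = 0.196). By CPM per kb KPNB1 ranked 3 among the 18 tested receptors in normoxia and 1 in hypoxia, and KPNA2 ranked 2 in normoxia and 4 in hypoxia. KPNB1 and KPNA2, which form one import complex, thus differed in the sign of their change under TMM factors.

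IPO9, an importer of core histones, had 63.2, 70.2 and 88.5 CPM in hypoxia against 130.3, 143 and 139.7 CPM in normoxia (log2 change -0.89 ± 0.12). IPO8, which imports Argonaute and SMAD proteins, had 72.0, 70.4 and 60.8 CPM in hypoxia against 123, 125 and 124 CPM in normoxia (-0.87 ± 0.10). Neither gene's groups overlapped, and they lay 1.86-fold and 1.83-fold lower. IPO11 had 34.7, 39.0 and 38.9 CPM in hypoxia against 60.1, 59.1 and 60.2 CPM in normoxia (-0.67 ± 0.10), and it shares 17.0% of its exon bases with LRRC70 and 5.68% with KIF2A on the same strand. IPO7, a paralogue of IPO8 and an importer of ribosomal proteins, had 403, 419 and 504 CPM in hypoxia against 569, 611 and 558 CPM in normoxia, a smaller fall of 1.31-fold (edgeR adjusted p = 0.009).

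IPO5, another importer of ribosomal proteins and histones, had 382, 397 and 359.7 CPM in hypoxia against 438, 462 and 428 CPM in normoxia. Its groups did not overlap and it just missed the threshold (-0.22 ± 0.09, edgeR adjusted p = 0.0511). It was called lower with library totals alone (-0.53, adjusted p = 0.000684), no filter on low counts (-0.35, 0.0141), upper-quartile scaling (-0.29, 0.0192) and limma-voom (-0.22, 0.0388), and without hypoxia replicate 3 (-0.21, 0.0375). IPO13, which works in both directions, had 17.9, 15.9 and 25.5 CPM in hypoxia against 16.2, 15.03 and 15.9 CPM in normoxia, with hypoxia replicate 3 well above the rest (0.34 ± 0.18, edgeR adjusted p = 0.113). IPO4 had 6, 6 and 5 counts in hypoxia and 10, 10 and 4 counts in normoxia and was not tested. IPO4 shares 69.3% of its exon bases with an overlapping read-through gene on the same strand that has 0 counts in every library, so its level is uncertain.

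Of 5 exportins, 2 fell (40%), 1 rose (20%) and 2 did not pass, against 31.0% lower and 31.2% higher among all tested genes. XPO4 (ENSG00000132953, GRCh38 chromosome 13, 20777329 to 20903048), the exporter of the translation factor eIF5A, had 29.4, 36.3 and 32.3 CPM in hypoxia against 77.8, 81.1 and 73.2 CPM in normoxia. It had the largest fall of the tested receptors, 2.37-fold (log2 change -1.24 ± 0.11, edgeR adjusted p = 4.18e-06). XPO5, the exporter of precursor microRNAs, had 38.4, 40.9 and 43.2 CPM in hypoxia against 56.2, 58.9 and 59.2 CPM in normoxia (-0.51 ± 0.10). XPO6, which removes actin and profilin from the nucleus, had 197, 216 and 193 CPM in hypoxia against 134, 129 and 134 CPM in normoxia, a rise of 1.53-fold (0.61 ± 0.09, edgeR adjusted p = 0.00014). Both genes had groups that did not overlap, in opposite directions.

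XPO1, the general exporter of proteins with a leucine-rich export signal, had 323, 357 and 283 CPM in hypoxia against 351, 365 and 329 CPM in normoxia. Its groups overlapped (-0.12 ± 0.10, edgeR adjusted p = 0.344). XPO7 had 143, 162 and 156 CPM in hypoxia against 131, 153 and 155 CPM in normoxia, also with overlap (0.07 ± 0.10, edgeR adjusted p = 0.569). These tests do not show that either gene was at the same level in both groups, and XPO1 was called lower with library totals alone (-0.43, edgeR adjusted p = 0.00708).

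Across both families the groups did not overlap for 19 of 21 tested nucleoporins and for 13 of 18 tested receptors. The same held for 67.9% of all tested genes and for 8793 of 12373 protein-coding ones. Of the 39 tested members, 26 kept their call and direction under all 15 alternatives tried. The members that did not were NUP62, NUP214, NUP98, NUP153 and NUP210L among the nucleoporins, and XPO7, XPO1, KPNA4, KPNA6, KPNA1, KPNA3, KPNB1 and IPO5 among the receptors.

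Promoters of the members were read from RefSeq (GRCh38.p14, 250 bases before to 50 after the start site), which held 37 of the 43. Those of KPNB1 and KPNA5, which rose, were missing, so the promoters of members that rose are those of NUP58 and XPO6 alone. The letters ACGTG, read on either strand, are the core of the hypoxia response element bound by HIF, and CACGTG, the E-box bound by MYC among others, contains them. The letters ACGTG were in 7 of 24 promoters of members that fell (29.2%), in 1 of 2 of members that rose, and in 1 of 8 of members that did not pass the test (12.5%), against 23.7% of 15302 protein-coding promoters. Shown here are the promoter of NUP58, the nucleoporin that rose, those of NUP188 and NUP50, which hold the same letters and fell, and that of NUP93, which had the largest fall and holds none. Capitals mark ACGTG or CACGT.
NUP58: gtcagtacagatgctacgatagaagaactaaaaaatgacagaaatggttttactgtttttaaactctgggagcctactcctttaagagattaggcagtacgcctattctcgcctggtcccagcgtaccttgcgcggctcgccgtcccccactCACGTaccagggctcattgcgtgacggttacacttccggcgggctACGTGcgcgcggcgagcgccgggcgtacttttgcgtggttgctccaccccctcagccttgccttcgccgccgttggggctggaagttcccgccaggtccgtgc
NUP188: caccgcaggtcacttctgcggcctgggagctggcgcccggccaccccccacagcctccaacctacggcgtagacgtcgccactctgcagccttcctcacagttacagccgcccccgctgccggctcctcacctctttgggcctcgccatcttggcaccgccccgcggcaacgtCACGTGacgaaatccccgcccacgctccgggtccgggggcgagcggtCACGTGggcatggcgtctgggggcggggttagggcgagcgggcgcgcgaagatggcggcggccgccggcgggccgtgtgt
NUP50: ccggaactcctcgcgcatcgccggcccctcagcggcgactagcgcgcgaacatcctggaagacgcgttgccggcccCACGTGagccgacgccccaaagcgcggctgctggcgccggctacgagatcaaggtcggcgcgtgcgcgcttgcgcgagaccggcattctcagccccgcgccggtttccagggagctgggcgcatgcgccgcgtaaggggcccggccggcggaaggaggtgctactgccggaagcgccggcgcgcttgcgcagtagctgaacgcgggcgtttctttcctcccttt
NUP93: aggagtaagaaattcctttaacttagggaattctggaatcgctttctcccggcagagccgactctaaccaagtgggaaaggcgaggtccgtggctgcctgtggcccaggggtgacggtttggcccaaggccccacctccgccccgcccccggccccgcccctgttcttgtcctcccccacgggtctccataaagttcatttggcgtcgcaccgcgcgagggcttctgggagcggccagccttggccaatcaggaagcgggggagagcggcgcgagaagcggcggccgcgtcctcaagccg
They lie at chr13:25301375-25301674 (plus strand), chr9:128947449-128947748 (plus strand), chr22:45163675-45163974 (plus strand) and chr16:56729879-56730178 (plus strand). In NUP58 the matches begin at positions -98 and -53 from the start site, in NUP188 at -77 and -30, both as the full E-box, and in NUP50 at -174, also as the full E-box. A match is a stretch of letters and not a bound site, and genes with these letters moved in both directions.

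Other letters were compared in the same way. CCGGAAG on either strand, the core recognised by ETS factors, was in 7 of 16 promoters of nucleoporins that fell (43.8%) and in 0 of 8 promoters of receptors that fell, against 14.4% of all promoters. TTTGAA on either strand, the cell cycle homology region, was in 5 of 16 and 3 of 8 (31.2% and 37.5%), against 12.1%. CCAAT on either strand was in 9 of 16 and 3 of 8, against 36.6%, the NRF1 palindrome in 2 of 16 and 0 of 8, against 1.72%, and the E2F letters TTCCCGCC, on either strand, in 1 of 16 and 1 of 8, against 4.34%. Most of these letters were also in promoters of members that did not fall. The ETS letters were in 2 of 2 promoters of members that rose and in 1 of 8 of members that did not pass the test, CCAAT in 1 of 2 and in 5 of 8 (62.5%), a larger share than in the nucleoporins that fell (56.2%), and the cell cycle homology region in 0 of 2 and 0 of 8. The NRF1 palindrome was in 0 of 2 and 1 of 8, and the E2F letters in 1 of 2 and 1 of 8. The NUP58 promoter holds the ETS and the E2F letters. No test was made of these shares.

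Pore components outside the naming rule were listed separately, with the results of these data already known. Of 11, 6 fell (54.5%) and 2 rose (18.2%), against 31.0% and 31.2% of all tested genes. Their median log2 change was -0.37. RANBP2, the large protein of the cytoplasmic filaments, averaged 151 ± 5.23 CPM in hypoxia and 241 ± 11.7 CPM in normoxia (SD, n = 3; log2 change -0.67 ± 0.09), and TPR, the main basket protein, 194 ± 21.4 CPM in hypoxia and 251 ± 12.8 CPM in normoxia (-0.37 ± 0.10). AAAS changed by -1.26 ± 0.13 and SEH1L by -1.33 ± 0.11. The membrane nucleoporin POM121 rose by 0.47 ± 0.14 (edgeR adjusted p = 0.0157), and it shares near-identical sequence with POM121C, so both are uncertain. With library totals alone 7 of the 11 fell and 0 rose.

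Of 11 tested transport receptors outside the rule, 3 rose and 3 fell (27.3% each), with a median of 0.06. These shares are near the 31.2% and 31.0% of all tested genes. CSE1L, the exportin that returns importin alpha to the cytoplasm, averaged 174 ± 10.9 CPM in hypoxia and 322 ± 10.01 CPM in normoxia (SD, n = 3; log2 change -0.89 ± 0.09, edgeR adjusted p = 1.03e-05), a fall like that of KPNA2. RANBP6, a paralogue of IPO5, had the largest fall, -1.79 ± 0.13, and NXT2, a cofactor of the mRNA exporter, changed by -1.30 ± 0.15. The mRNA exporter NXF1 rose by 0.80 ± 0.14, the tRNA exporter XPOT by 0.58 ± 0.09 and TNPO3, an importer of splicing factors, by 0.41 ± 0.09. TNPO1 and TNPO2 did not pass the test.

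In the Ran cycle, 2 of 6 tested genes fell (33.3%) and 1 rose (16.7%), against 31.0% and 31.2% of all tested genes. RANBP1, which helps to turn off Ran in the cytoplasm, averaged 30.3 ± 0.718 CPM in hypoxia and 122 ± 13.3 CPM in normoxia (SD, n = 3), a log2 change of -2.01 ± 0.11 (edgeR adjusted p = 1.36e-07). RANGAP1, which works with it, changed by -0.50 ± 0.13, and RANBP3 rose by 0.32 ± 0.12 with groups that overlapped (edgeR adjusted p = 0.0439). RAN itself averaged 528 ± 72.1 CPM in hypoxia and 429 ± 47.4 CPM in normoxia (edgeR adjusted p = 0.054), and its exchange factor RCC1 had an adjusted p of 0.0507. With library totals alone 3 of these 6 fell and 0 rose.

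Of 17 tested mRNA export genes 6 rose and 6 fell (35.3% each), near the 31.2% and 31.0% of all tested genes. DDX39B at 0.82 ± 0.10 and SARNP at 1.56 ± 0.36 were among the rises. THOC3 at -1.36 ± 0.16, DDX39A at -0.95 ± 0.15 and ALYREF at -0.85 ± 0.16 were among the falls. Of 15 nuclear lamina and envelope genes 9 fell (60%) and 4 rose (26.7%), with a median of -0.43. The lamin B receptor LBR, TMPO and LMNB1 changed by -1.64 ± 0.12, -1.82 ± 0.14 and -1.55 ± 0.12, and EMD, the emerin gene, rose by 1.88 ± 0.15, while LMNA averaged 241 CPM in hypoxia and 244 CPM in normoxia. Of 12 cell cycle genes 10 fell (83.3%), 0 rose, and all 12 had a change below 0. PCNA was at -2.37 ± 0.11, MCM3 at -3.17 ± 0.14 and CDK1 at -1.34 ± 0.10. MKI67 and PLK1 did not pass the test (edgeR adjusted p = 0.461 and 0.0706). These genes moved with the nucleoporins, and their part in the nucleoporin result was not tested.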

How the data were processed

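RNA-seq counts of 6 IOMM-Lee libraries were analysed, grouped by their titles. The deposited table gives raw, unscaled counts for each Ensembl gene, and the tools named in the submitters' processing notes are featureCounts 2.0.1, HISAT2 2.1.0, DESeq2 1.37.5 and fastp 0.20.1, with GRCh38.p13 as build. Per the labels' protocols, cells grew at 37 °C and 5% CO2 with 10% serum, and NEBNext Ultra II was the library kit. Neither strand setting nor annotation release is stated there. Of the table's 61860 lines, 1 names no gene and was left out. It holds 535, 704 and 954 counts in the normoxia libraries, and no value was read from it for the hypoxia libraries. A second table, of normalized values, was not used because its cells run together. Symbols came from a table of Ensembl IDs (61857 of 61859 matched), and types, coordinates and exon lengths from GENCODE 29 on GRCh38 (58307 matched).

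Genes were kept by filterByExpr (minimum count 10, minimum total 15) and tested with edgeR 4.0.16 in R 4.3.3 (TMM factors, robust quasi-likelihood F test). The SE is the size of the log2 change divided by the square root of F, and the biological coefficient of variation was 15.3%. The scripts were tested on simulated data. Alternatives used DESeq2 1.42.0, limma-voom (limma 3.58.1), other scalings and filters, a replicate block, each library left out, and an adjusted p of 0.01. The members and gene lists were chosen with earlier results of these data known. Values in every library are printed for the 5 largest called rises and falls of each family and for members that did not pass the test; from each list up to 3 called genes in the more frequent direction and 2 in the other were taken, with some further genes named after their values were seen. Although labelled biological replicates, nothing says whether the libraries came from separate cultures, so p-values measure the spread between these samples. No pair of replicates was alike within sampling noise (chi-square from 5.75 to 39.3 per gene). Of 23 other genes with a member's name, 16 are pseudogenes; apart from those of NUP210, each has under 1% of its parent's counts, although reads matching both may be lost. The result of 1 marker gene is not reported here.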

Additional observations from a re-analysis of the deposited data

How the results depend on the processing

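The counts of calls stayed within 1.5 times their value under all 15 alternatives: 15 to 18 nucleoporins lower and 1 higher, 7 to 12 receptors lower and 2 or 3 higher, and 8024 to 11339 genes called in all. Leaving out 1 library gave 9065 to 10913 genes called, nucleoporin medians from -0.86 to -0.75 and receptor medians from -0.33 to -0.25. The medians moved with library totals alone (-1.11 and -0.58) and with no filter on low counts (-0.92 and -0.39), where the median of all genes also moved, to -0.30 and -0.16. With library totals alone the genes called higher became 0 for other pore components, 0 for the Ran cycle, 2 for mRNA export and 2 for the lamina and envelope. Only members that did not pass the test changed sign. With library totals alone NUP214 was at -0.22, NUP210L at -0.29, XPO7 at -0.24 and KPNA4 at -0.12. With no filter NUP214 was at -0.032, NUP210L at -0.095 and XPO7 at -0.054, and with upper-quartile scaling NUP210L was at -0.052. Leaving out 1 library gave NUP210L from -0.19 to 0.13, XPO7 from -0.028 to 0.11 and KPNA6 from -0.18 to 0.016. NUP62 was called lower without hypoxia replicate 3 (-0.24, adjusted p = 0.032), with upper-quartile scaling (0.0396) and with library totals alone (0.0018). KPNA2's share of importin alpha differed by -16.6 to -14.5 percentage points when 1 library was left out, against -15.6. Same-numbered replicates did not deviate together (correlations -0.11, 0.09 and -0.04), so the numbers were not taken as pairs. With a replicate block 4862 genes were higher and 4906 lower, with the NUP98 and KPNA3 calls changed as given above. Depth limits NUP210, NUP62CL, KPNA7 and NUP210L, whose changes were not detectable at these counts. IPO4 also had few counts, and its level is uncertain because of the shared exon bases given above. The cause of each change in call was not tested.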
